A study of Mus musculus with 6 samples.

Results

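The genes described here are the transcription factor genes Satb1, Bcl11a, Bcl11b, Foxp1, Foxp2 and Foxp4, measured in retinal ganglion cells, the output neurons of the retina. The genes were chosen by name, and every probe set that the platform annotation assigns only to one of them was taken. This gave 33 probe sets of the 34945 that map to 1 gene, and 6 genes of 18193. For each gene the brightest of its probe sets, by mean log2 intensity on the 6 arrays, leads. RNA came from retinas of C57BL/6 mice at postnatal day 6, dissociated with papain and sorted by flow cytometry, and there are 3 groups with 2 Affymetrix arrays each. GFP+ Thy1+ cells were collected from the Hb9 mouse line and, as a separate group, from the Drd4 line, and the Thy1 group was sorted as Thy1+ with no GFP selection. The 2 arrays of a group came from different litters, and pooling of animals within a litter is not stated. GFP marks the cells in which a line's transgene is active, so each GFP group is defined by the line as well as by cell type. All groups share the Thy1 selection and the age, so no other stage or cell class is compared.

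Both lines are known to label ON-OFF direction-selective ganglion cells, which respond to motion along a preferred direction. Satb1 is a chromatin organiser that binds AT-rich DNA and is known in such cells as a regulator of dendrite form. Bcl11a and Bcl11b, also called Ctip1 and Ctip2, are paralogous zinc finger factors that act with chromatin remodelling and deacetylase complexes and help to set the identity of projection neurons in the cortex. Foxp1, Foxp2 and Foxp4 encode forkhead repressors that bind DNA as homodimers or heterodimers. In the retina Foxp2 is known from a small group of ganglion cell types, some of which also carry Foxp1.

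The start regions of Satb1, Bcl11a and Bcl11b are shown because these genes carry the clearest differences between the sorted groups. RefSeq (GRCm38.p6) gave start regions for 5 of the 6 genes, 11 in all, of which 5 belong to Satb1 and 3 to Foxp1. Each sequence is the 250 bases before a start, 5′ to 3′ on the gene's strand, with CG dinucleotides in capitals. The first Satb1 window lies before the outermost start, at chr17:51833291-51833540 on the minus strand, and the second at chr17:51832648-51832897 before an inner one. The Bcl11a window lies at chr11:24080445-24080694 on the plus strand and the Bcl11b window at chr12:108003415-108003664 on the minus strand.
Satb1 outermost: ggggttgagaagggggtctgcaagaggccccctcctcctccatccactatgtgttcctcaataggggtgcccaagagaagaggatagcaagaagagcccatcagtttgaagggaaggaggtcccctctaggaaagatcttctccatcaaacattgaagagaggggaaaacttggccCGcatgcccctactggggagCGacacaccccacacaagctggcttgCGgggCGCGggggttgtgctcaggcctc
Satb1 inner: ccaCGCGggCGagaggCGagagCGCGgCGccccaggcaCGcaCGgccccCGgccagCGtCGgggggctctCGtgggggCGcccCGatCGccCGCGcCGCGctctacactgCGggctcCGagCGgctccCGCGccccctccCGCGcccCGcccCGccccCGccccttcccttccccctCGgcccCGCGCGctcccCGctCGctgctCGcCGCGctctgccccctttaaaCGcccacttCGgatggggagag
Bcl11a: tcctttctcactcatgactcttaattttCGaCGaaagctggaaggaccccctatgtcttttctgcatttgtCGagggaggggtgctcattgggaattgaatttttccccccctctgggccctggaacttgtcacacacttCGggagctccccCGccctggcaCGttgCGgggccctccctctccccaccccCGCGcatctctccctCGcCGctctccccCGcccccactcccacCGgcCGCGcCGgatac
Bcl11b: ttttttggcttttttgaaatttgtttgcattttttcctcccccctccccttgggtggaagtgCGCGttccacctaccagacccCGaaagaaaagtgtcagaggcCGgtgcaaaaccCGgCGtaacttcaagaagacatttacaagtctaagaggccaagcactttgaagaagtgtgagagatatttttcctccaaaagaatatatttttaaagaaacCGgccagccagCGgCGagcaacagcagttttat
The inner Satb1 window printed held 41 CG dinucleotides, the most of the 5 Satb1 windows, and the outermost 5. The other Satb1 windows held 3, 6 and 12, against a median of 6 over 32851 windows of this length. Bcl11a had 16 and Bcl11b had 9, and their GC contents were 62.0% and 44.8%. The forkhead core TGTTTAC, the BCL11A motif TGACCA and the TATA box TATAAA were searched on both strands, and 0 of the 11 windows held any of them. Over all windows the shares with a match were 3.17%, 11.4% and 12.4%, so most windows lack each motif. The arrays do not say which of the Satb1 starts was in use.

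The deposited values are probe set intensities. Array medians ran from 45.5 to 47.7, and replicate arrays correlated at 0.988 to 0.992 across genes. A background reference was taken on each array as the brightest of 27 bacterial control probe sets, at log2 intensities of 4.95 to 5.38. All 9 measured ganglion cell markers lay above it on every array. Against the Thy1 sort, Nefm passed as higher in Hb9 (log2 difference 0.57) and in Drd4 (0.67). The gene Thy1 also passed in Drd4 (0.52), a call lost in 4 of 17 alternatives. The list's summed intensity was 32024 and 30886 in Hb9, 33466 and 32438 in Drd4, and 28958 and 28166 in Thy1. Its part in the results for the 6 genes was not tested. Of 5 markers of ON-OFF direction-selective cells, 3 were higher in Hb9 than in Thy1, and 2 were higher and 1 lower in Drd4. Of the genes that name the lines, Mnx1 (Hb9) read at or under the reference in all groups, with means from 3.95 to 4.07. Drd4 read 5.54 to 5.62 in all groups, so neither checks a label. Thy1 read 11.58 in Hb9, 11.76 in Drd4 and 11.24 in Thy1. The summed intensities of 13 microglial and of 14 endothelial and pericyte genes were higher on both Thy1 arrays than on any other. In sorted bulk samples, fewer cells of a type and less RNA per cell cannot be told apart.

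Across the 3 comparisons, Satb1 was higher in both GFP lines than in the Thy1 sort, while the Bcl11 pair separated the lines from each other. Drd4 cells had more Bcl11b and less Bcl11a than either other group. Foxp1 and Foxp2 were lower in Drd4 than in the Thy1 sort, and Foxp4 did not pass in any comparison. Of the 6 genes, 1 passed an adjusted p of 0.05 in Hb9 against Thy1, where 6.71% of all genes did, 3.52% as higher and 3.19% as lower. The 1 was higher. In Drd4 against Thy1, 5 passed, against 5.47% of all genes. Of these 2 were higher and 3 lower, where 1.51% and 3.96% of all genes were. Between the lines 2 passed, against 6.12% of all genes. Of these 1 was higher and 1 lower in Hb9, where 4.06% and 2.06% of all genes were. The median log2 difference of the 6 genes was -0.16 for Hb9 minus Thy1, -0.57 for Drd4 minus Thy1 and 0.44 for Hb9 minus Drd4, beside 0.04, 0.02 and 0.04 over all genes. Both comparisons with Thy1 use the same 2 Thy1 arrays. Each ± beside a log2 difference is limma's standard error, and adjusted p-values are by Benjamini-Hochberg over 18193 genes, with n = 2 arrays in each group.

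**Figure D1:**
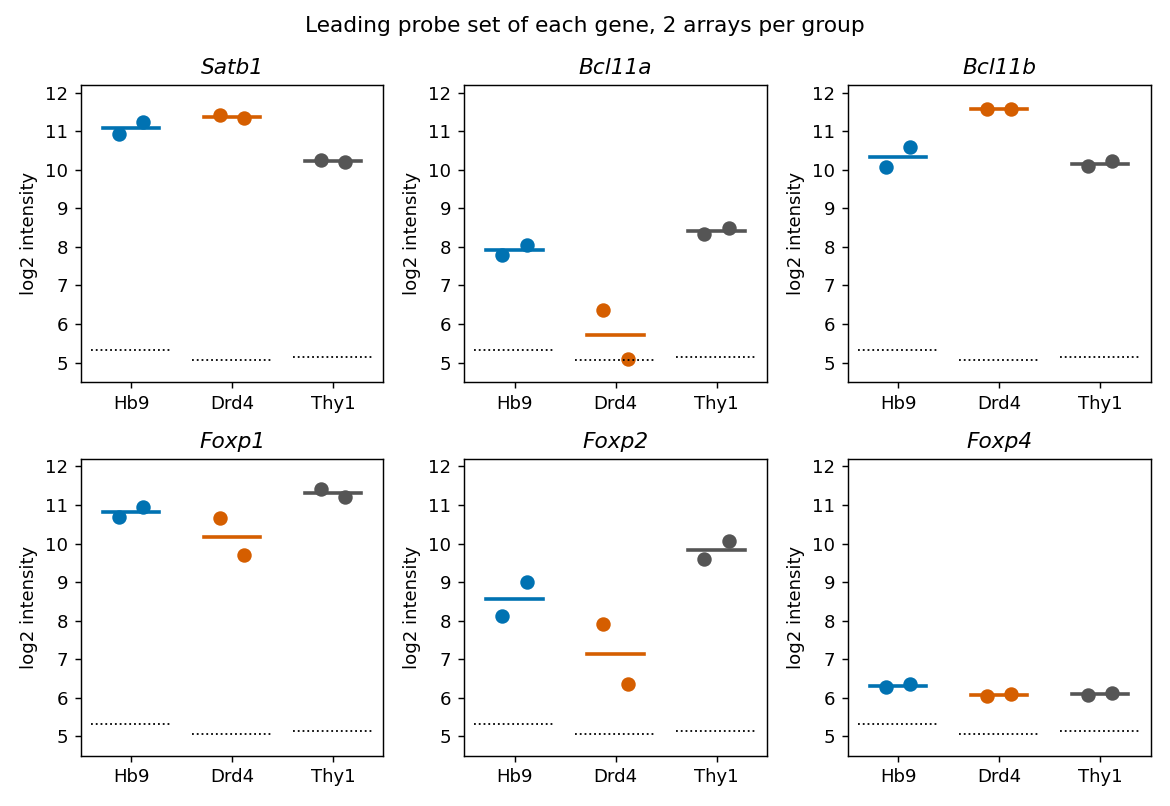
Log2 intensity of the leading probe set of each gene on the 6 arrays, by sorted group. Points are single arrays, solid bars are group means and dotted lines are the mean background reference of the group. Satb1 was highest in both GFP lines, Bcl11b in Drd4 only, and Bcl11a on Drd4 replicate 2 read 5.10, next to the reference.

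Satb1 passed as higher in both lines against the Thy1 sort. On the leading probe set it read 10.94 and 11.23 in Hb9, 11.41 and 11.33 in Drd4, and 10.26 and 10.20 in Thy1 (log2 intensity of replicates 1 and 2). All 4 arrays of the GFP lines lay above both Thy1 arrays, and Drd4 lay above Hb9 by less than the test could separate. Satb1 was 1.81-fold higher in Hb9 (log2 difference 0.86 ± 0.13, limma adjusted p = 0.00511) and 2.21-fold higher in Drd4 (1.14 ± 0.13, adjusted p = 0.000558). Hb9 minus Drd4 was -0.29, with a 95% interval from -0.57 to 0.0012 and an adjusted p of 0.255. Without Hb9 replicate 2 the Hb9 call was lost (0.71, adjusted p = 0.0537), and the Drd4 call held with every array left out in turn.

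Satb1 has 5 probe sets, and 4 of them passed as higher in both lines, where 6.03% of all probe sets passed in Hb9 against Thy1 and 3.77% in Drd4 against Thy1. Their size was not the same. Probe set 1436182_at read 10.59 and 10.41 in Hb9, 10.17 and 10.42 in Drd4, and 8.37 and 8.82 in Thy1. Its differences from Thy1 were 1.90 ± 0.17 in Hb9 and 1.70 ± 0.17 in Drd4, larger than those of the leading probe set. Probe set 1416007_at gave 1.15 ± 0.17 and 1.61 ± 0.17, and 1439449_at gave 0.78 ± 0.16 and 1.01 ± 0.16. The remaining one, 1439315_at, was at or below the reference in Hb9 and Thy1. The 4 with both means above the reference did not separate Hb9 from Drd4, with differences from -0.47 to 0.20 and adjusted p-values from 0.157 to 0.603 (limma over all probe sets). One of them, 1416007_at, had an unadjusted p under 0.05.

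The Bcl11 paralogs ran in opposite directions in Drd4 cells. Bcl11b read 11.57 on both Drd4 arrays, 10.06 and 10.59 in Hb9, and 10.09 and 10.23 in Thy1. Drd4 lay clear of both other groups, and the Hb9 and Thy1 arrays overlapped. Bcl11b was 2.66-fold higher in Drd4 than in Thy1 (1.41 ± 0.17, limma adjusted p = 0.000695). Hb9 was 2.37-fold below Drd4 (-1.24 ± 0.17, adjusted p = 0.0018). Hb9 minus Thy1 was 0.17 with a 95% interval from -0.20 to 0.54, which does not show equal levels. All 4 Bcl11b probe sets passed as higher in Drd4, against Thy1 by 1.19 to 2.12 and against Hb9 by 1.24 to 1.56, beside 3.77% and 6.49% of all probe sets. In Hb9 against Thy1 they ran from -0.32 to 0.63, and 0 of 4 passed in limma, with 2 at an unadjusted p under 0.05.

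Bcl11a read 7.80 and 8.05 in Hb9, 6.36 and 5.10 in Drd4, and 8.34 and 8.48 in Thy1. The order of the groups was Thy1, Hb9 and Drd4, and the arrays of the 3 groups did not overlap. Drd4 was 6.44-fold below Thy1 (-2.69 ± 0.32, limma adjusted p = 0.00079), and Hb9 was 4.58-fold above Drd4 (2.20 ± 0.32, adjusted p = 0.00324). Hb9 and Thy1, neighbours in that order, were not separated (-0.49 ± 0.32, adjusted p = 0.411). The Drd4 arrays differed by more than those of the other groups, and replicate 2 was under its array's reference of 5.20. Without Drd4 replicate 1 the Drd4 level rests on replicate 2 alone, and was at least 3.22 below Thy1 on the log2 scale. Without Drd4 replicate 2 the difference was -2.06, and both passed, as did the fits with every other array left out. With the 7 probe sets of the gene averaged, Drd4 minus Thy1 was -1.29 (adjusted p = 0.00538) and Hb9 minus Drd4 was 1.08 (adjusted p = 0.0139). Microglial markers summed to 1826 and 2281 in Hb9, 3294 and 1158 in Drd4, and 12643 and 7383 in Thy1, and endothelial and pericyte markers to 2310 and 1890, 1494 and 559, and 8566 and 9797. Both sums were lower in the lines than in the Thy1 sort. Within Drd4 both were lower on replicate 2, as Bcl11a was. The Hb9 microglial sums lay below that of Drd4 replicate 1, where Bcl11a was lower than in Hb9, and the other Hb9 sums lay above. On replicate 2 within Thy1, where Bcl11a was higher, the microglial sum was lower and the other sum higher. Within Hb9 Bcl11a was also higher on replicate 2, with the microglial sum higher and the other lower. The part of both sums in the result was not tested.

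Probe sets of Bcl11a did not all show this. Of 7, 4 passed as lower in Drd4 against Thy1 and the same number as lower against Hb9. Over all probe sets 3.77% and 6.49% passed in either direction. Probe set 1419406_a_at read 7.43 and 7.54 in Hb9, 6.03 and 4.09 in Drd4, and 7.42 and 7.84 in Thy1. Its Drd4 mean was at or below the reference. Replicate 1 lay above its own array's reference and replicate 2 below, so its differences from Drd4 have no size. Probe set 1457072_at was below the reference on both Drd4 arrays, and its log2 level there was at least 1.66 below that in Thy1. The remaining one that passed, 1426552_a_at, had all group means at or below the reference. Both probe sets of clone BB526119 lay above the reference on average in all groups and did not pass, with Drd4 minus Thy1 at -0.11 for 1447335_x_at and 0.06 for 1447334_at.

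**Figure D2:**
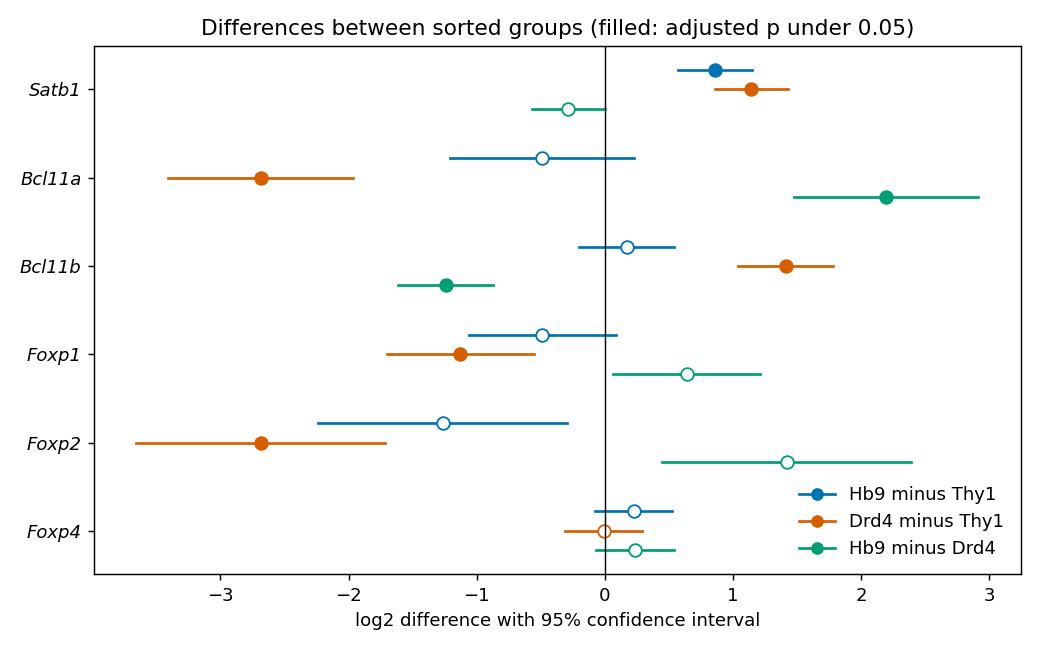
Log2 difference between groups for the leading probe set of each gene, with 95% confidence intervals from the moderated limma fit. Filled points passed an adjusted p of 0.05. In Drd4 minus Thy1, Bcl11a lies at -2.69 and Bcl11b at 1.41, and in Hb9 minus Drd4 their signs are the reverse.

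Foxp2 had the widest spread between arrays of the 6 genes. It read 8.13 and 8.997 in Hb9, 7.92 and 6.37 in Drd4, and 9.60 and 10.06 in Thy1. The order was Thy1, Hb9 and Drd4, with no overlap of arrays. Drd4 was 6.43-fold below Thy1 (-2.69 ± 0.44, limma adjusted p = 0.00452), and the difference was -3.46 without Drd4 replicate 1 and -1.91 without Drd4 replicate 2. With robust moderation this call was lost (adjusted p = 0.0928), and with the 6 probe sets averaged it was -1.52 (adjusted p = 0.0255). The microglial sums were also lower in Drd4 (3294 and 1158) than in Thy1 (12643 and 7383) and lower on Drd4 replicate 2. Within Thy1 the sum was lower on replicate 2, where Foxp2 was higher. The Hb9 sums (1826 and 2281) lay below that of Drd4 replicate 1, where Foxp2 was lower than in Hb9. The part of these sums in the result was not tested. Hb9 minus Thy1 was -1.27 ± 0.44 and did not pass (adjusted p = 0.116), and it was -0.61 with probe sets averaged (adjusted p = 0.284). It passed when only these 2 groups were fitted (adjusted p = 0.00947), when Drd4 replicate 1 was left out (0.0104) and when Drd4 replicate 2 was left out (0.0101). Hb9 minus Drd4 was 1.42 (95% interval 0.45 to 2.39, adjusted p = 0.0937), and passed at 2.20 without Drd4 replicate 1 (adjusted p = 0.00153). With probe sets averaged it was 0.90 (adjusted p = 0.14).

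Of 6 Foxp2 probe sets, 3 passed as lower in Drd4 than in Thy1, where 3.77% of all probe sets passed in either direction. Probe set 1438231_at, from the same clone as the leading one, read 7.34 and 8.37 in Hb9, 7.88 and 5.92 in Drd4, and 9.23 and 9.32 in Thy1. Here Drd4 replicate 1 lay between both Hb9 arrays. Probe set 1440108_at read 6.85 and 8.03 in Hb9, 6.07 and 3.96 in Drd4, and 7.90 and 8.44 in Thy1. In Drd4 its replicate 1 lay above that array's reference and replicate 2 below, so its differences from Drd4 have no size. It was the only Foxp2 probe set that passed between the lines, as lower in Drd4, where 6.49% of all probe sets passed. The other 3 read from 4.04 to 5.79 over all arrays and did not pass. Of these 1458191_at was above the reference on all 6 arrays, and 1441365_at on none.

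Foxp1 read 10.68 and 10.96 in Hb9, 10.67 and 9.69 in Drd4, and 11.42 and 11.20 in Thy1. The order of means was again Thy1, Hb9 and Drd4, and the higher Drd4 array lay just under the lower Hb9 array. Drd4 was 2.18-fold below Thy1 (-1.13 ± 0.26, limma adjusted p = 0.0302). It no longer passed when Drd4 replicate 2 was left out (-0.64, adjusted p = 0.0662), nor when Thy1 replicate 1 (-1.02, 0.171) or Thy1 replicate 2 (-1.24, 0.0788) was. Robust moderation gave an adjusted p of 0.0657. Without Drd4 replicate 1 the difference was -1.61 and passed. With the 8 probe sets averaged it was -0.75 and passed (adjusted p = 0.0119). Here too Drd4 replicate 2 was the lower, as were its endothelial and pericyte sum (1494 and 559) and its microglial sum (3294 and 1158). The Hb9 microglial sums (1826 and 2281) lay below that of Drd4 replicate 1, where Foxp1 was just under the lower Hb9 array. The Hb9 endothelial and pericyte sums (2310 and 1890) lay above it. On replicate 2 within Thy1, where Foxp1 was lower, the microglial sum was lower and the other sum higher. The part of these sums in the result was not tested. Hb9 minus Thy1 was -0.49 (95% interval -1.06 to 0.08) and did not pass in the model of 3 groups (adjusted p = 0.294), though it did with only the 2 compared groups (adjusted p = 0.049).

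The 8 Foxp1 probe sets disagreed about which groups differ. In Drd4 minus Thy1, the 6 with both means above the reference ran from -1.13 to -0.04. Of them 2 passed, beside 3.77% of all probe sets. Probe set 1421141_a_at also passed, with a Drd4 mean at or below the reference and a level there at least 0.29 below that in Thy1 on the log2 scale. In Hb9 minus Drd4, the 5 with both means above the reference ran from 0.59 to 1.19, and 3 of them passed as higher in Hb9, beside 6.49% of all probe sets. The leading one did not. Probe set 1421142_s_at read 6.48 and 6.40 in Hb9, 5.37 and 5.14 in Drd4, and 6.31 and 6.41 in Thy1, so Hb9 overlapped Thy1 and Drd4 was lower than both. Probe set 1435221_at read 8.09 and 8.46 in Hb9, 7.39 and 7.15 in Drd4, and 7.82 and 7.88 in Thy1, with Hb9 on top. Between the lines 1421141_a_at also passed, as higher in Hb9. Its Hb9 replicate 2 (5.13) lay under that array's reference of 5.25, so no size is given. Probe set 1438802_at passed there too, but was at or below the reference in all 3 groups, so its difference has no size. In Hb9 minus Thy1, the 6 with both means above the reference ran from -0.49 to 0.42, and 0 passed in limma, with 1 at an unadjusted p under 0.05.

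Foxp4 read 6.29 and 6.35 in Hb9, 6.06 and 6.10 in Drd4, and 6.06 and 6.12 in Thy1. The Hb9 arrays lay above the other 4 by a small margin, and the Drd4 and Thy1 arrays overlapped. Hb9 minus Thy1 was 0.22 (95% interval -0.08 to 0.53), Drd4 minus Thy1 was -0.01 (-0.31 to 0.29) and Hb9 minus Drd4 was 0.23 (-0.07 to 0.54), with adjusted p-values of 0.368, 0.993 and 0.394. These intervals allow differences of up to about 0.54 on the log2 scale. Its other probe sets read 4.96 to 5.42, near the reference, and 0 of 3 passed in any comparison in limma, with 0 at an unadjusted p under 0.05.

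**Figure D3:**
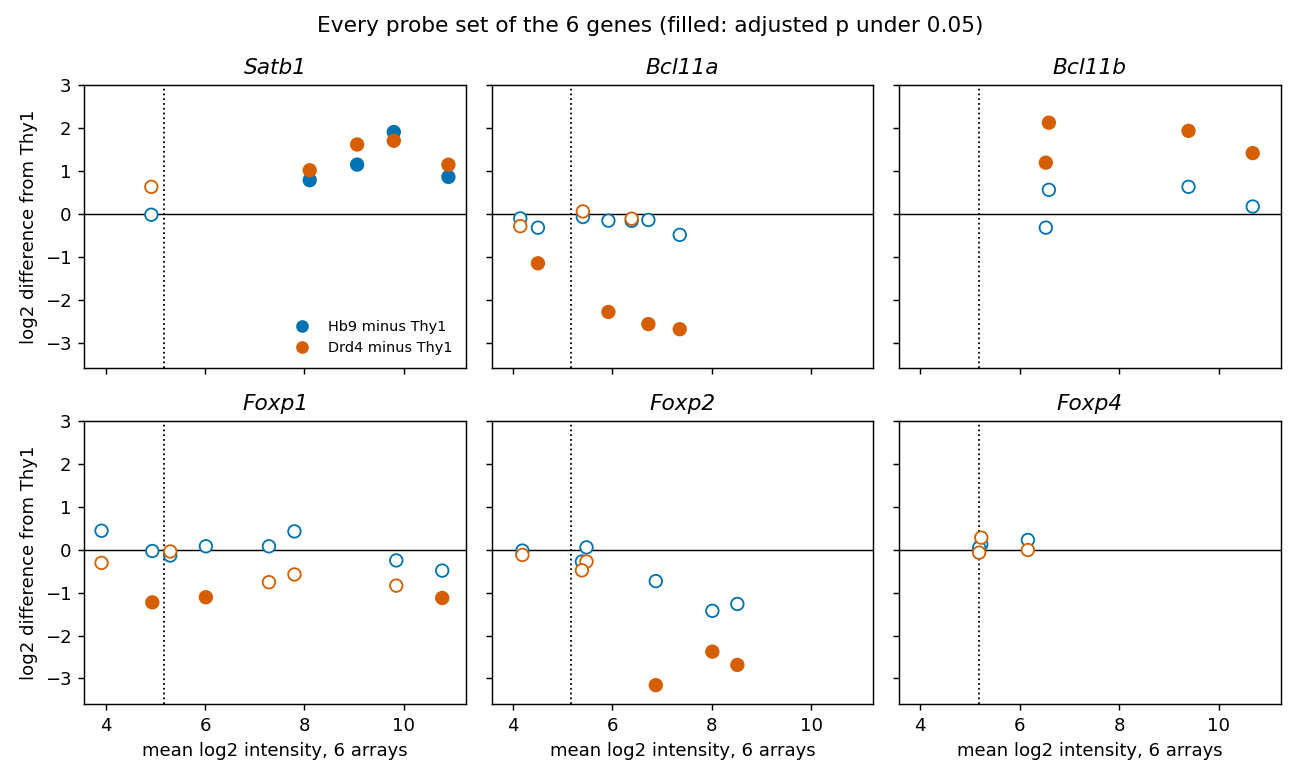
Log2 difference from Thy1 of all 33 probe sets against their mean log2 intensity over 6 arrays, in Hb9 (blue) and Drd4 (orange). Filled points passed an adjusted p of 0.05 over all probe sets, and the dotted line is the mean background reference. In Drd4 all 4 Bcl11b probe sets lie between 1.19 and 2.12, while the leading one of Bcl11a lies at -2.69. Points whose group mean is at or below the reference show the fitted value, which is no measure of size there, and this holds for the other 3 of Bcl11a that passed.

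Other genes of these families and of partner complexes were compared in the same fit. Foxp3, a Foxp gene known as a factor of regulatory T cells, read 4.92 to 5.11 as group means, at the reference, and did not pass. Of 46 chromatin partners of these factors (BAF and NuRD remodelling subunits, CtBP and other corepressors), 44 were measured and all lay above the reference on every array. In Hb9 against Thy1, 1 rose, Hdac2, a NuRD deacetylase (0.66 ± 0.14), and 1 fell, Chd4, the NuRD ATPase (-1.05 ± 0.17). Over all genes 3.52% were higher there and 3.19% lower. The list median was 0.20 beside 0.04 over all genes. In Drd4 against Thy1 only Ctbp2, a corepressor, passed (-0.67 ± 0.16), where 5.47% of all genes did. The list median there was 0.07 beside 0.02. Between the lines the list median was 0.16 beside 0.04. There 4 were higher in Hb9 and 1 lower, where 4.06% and 2.06% of all genes were. The largest were Sirt1, a deacetylase (0.94 ± 0.19), Smarcd3, a BAF subunit (0.83 ± 0.20), and Ctbp2 (0.70 ± 0.16). Chd4 was lower in Hb9 by 1.16 ± 0.17. Of the calls named, that of Chd4 between the lines was kept under all 17 alternatives, and each other one was lost with some single array left out. Those of Chd4 in Hb9 and of Sirt1 were lost without Hb9 replicate 2 (adjusted p = 0.0635 and 0.119), and that of Sirt1 also without Drd4 replicate 1 (0.0525). Those of Hdac2 and Smarcd3 were lost without either Hb9 replicate, Hdac2 also without Thy1 replicate 1 and with its probe sets averaged (0.37, adjusted p = 0.219), and Smarcd3 also without Drd4 replicate 1. Those of Ctbp2 were lost whichever of the compared arrays was left out, and with its probe sets averaged (0.43, adjusted p = 0.117, between the lines and -0.57, adjusted p = 0.0544, in Drd4).

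Of 39 other forkhead genes 33 were measured, and 26 were above the reference in at least 1 group. Foxc1, a factor of perivascular mesenchyme, fell in both lines, with a Thy1 mean of 6.00 and means at or below the reference of 4.47 in Hb9 and 4.42 in Drd4. It was at least 1.60-fold lower in Hb9 and at least 1.90-fold lower in Drd4. Foxc2, its paralog, was at least 1.18-fold lower in Drd4, and Foxo1, a target of insulin signalling, fell there by 0.64 on the log2 scale. Between the lines only Foxo3 passed, lower in Hb9 by 0.58 ± 0.14. The counts were 0 higher and 1 lower in Hb9 against Thy1, 0 and 3 in Drd4 against Thy1, and 0 and 1 between the lines, with list medians of -0.01, -0.0044 and -0.0093. The calls of Foxc2 and Foxo1 were each lost without Drd4 replicate 1 and without Thy1 replicate 2, that of Foxo1 also without Thy1 replicate 1 and with its probe sets averaged (-0.22, adjusted p = 0.35), and that of Foxo3 in 7 alternatives, among them each of the 4 arrays compared.

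Cntn5, a contactin that Satb1 is known to drive in ON-OFF direction-selective cells, did not follow Satb1 in both lines. It read 7.34 and 7.25 in Hb9, 5.20 and 5.43 in Drd4, and 5.64 and 6.14 in Thy1. The Hb9 arrays were the highest and the Drd4 arrays the lowest, without overlap. The Drd4 readings lay near the background references of those arrays, 4.95 and 5.20. Cntn5 was higher in Hb9 than in Drd4 by 1.98 ± 0.18 (limma adjusted p = 0.000201) and than in Thy1 by 1.40 ± 0.18, while Drd4 minus Thy1 was -0.58 ± 0.18 (adjusted p = 0.132). Cntnap4, a partner of contactins, was lower in Hb9 than in Thy1 by 0.77 ± 0.19, a call lost without Hb9 replicate 1 (adjusted p = 0.28) or either Thy1 replicate (0.0547 and 0.136). In Drd4 it did not pass (-0.57 ± 0.19, adjusted p = 0.148).

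Factors known to be combined with Foxp genes in ganglion cell types were compared as well. Of Pou4f1, Pou4f2, Pou4f3, Isl2 and Irx4, 4 were measured and Pou4f2 was not analysed here. Irx4, an Iroquois factor, read 6.48 and 6.97 in Hb9, 8.55 and 8.54 in Drd4, and 7.46 and 7.99 in Thy1. Hb9 was lowest and Drd4 highest, with no overlap, and Hb9 minus Drd4 was -1.82 ± 0.22 (limma adjusted p = 0.00085). Against Thy1 it was lower in Hb9 (-0.997 ± 0.22, adjusted p = 0.0248, lost without Hb9 replicate 1 at 0.20 and Thy1 replicate 2 at 0.0891) and did not pass in Drd4 (0.82 ± 0.22, adjusted p = 0.0601). Pou4f3, a Brn3 factor, had an Hb9 mean at or below the reference and was at least 1.65-fold higher in Drd4 than in Hb9. Its rise of 0.77 in Drd4 against Thy1 was lost in 8 of 17 alternatives. Isl2 was higher in Hb9 than in Drd4 by 0.73 ± 0.15, a call lost without either Hb9 replicate or Drd4 replicate 1, and Pou4f1 did not pass in any comparison.

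For each gene that passed, the 3 genes with the nearest profile over the 6 arrays were found by the root mean square difference of log2 values centred on each gene's mean. The profiles share their arrays and groups, so correlations are given as a description only. Nearest to Satb1 was Ryr2, an intracellular calcium channel, at a distance of 0.06 and r = 0.99, followed by Pcdh10 (0.11), a protocadherin, and Slit2 (0.12), a guidance ligand. Nearest to Bcl11a were Npnt (0.22), an integrin ligand, the homeobox gene Meis2 (0.26) and Pcdh19 (0.27). Nearest to Bcl11b were Rasgef1a (0.10), Adcy8 (0.17), an adenylyl cyclase, and the keratin gene Krt26 (0.19). Adcy8 read under the reference on both Hb9 and both Thy1 arrays, so the size of its change is not measured. The nearest profiles of Foxp1 were Stum, Spred1 and Tgfbr1, all at 0.14, and those of Foxp2 were Zeb2 (0.26), a zinc finger factor, Itpripl2 (0.31) and the integrin gene Itga6 (0.33). All 15 had r between 0.959 and 0.998 over the 6 arrays.

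**Figure D4:**
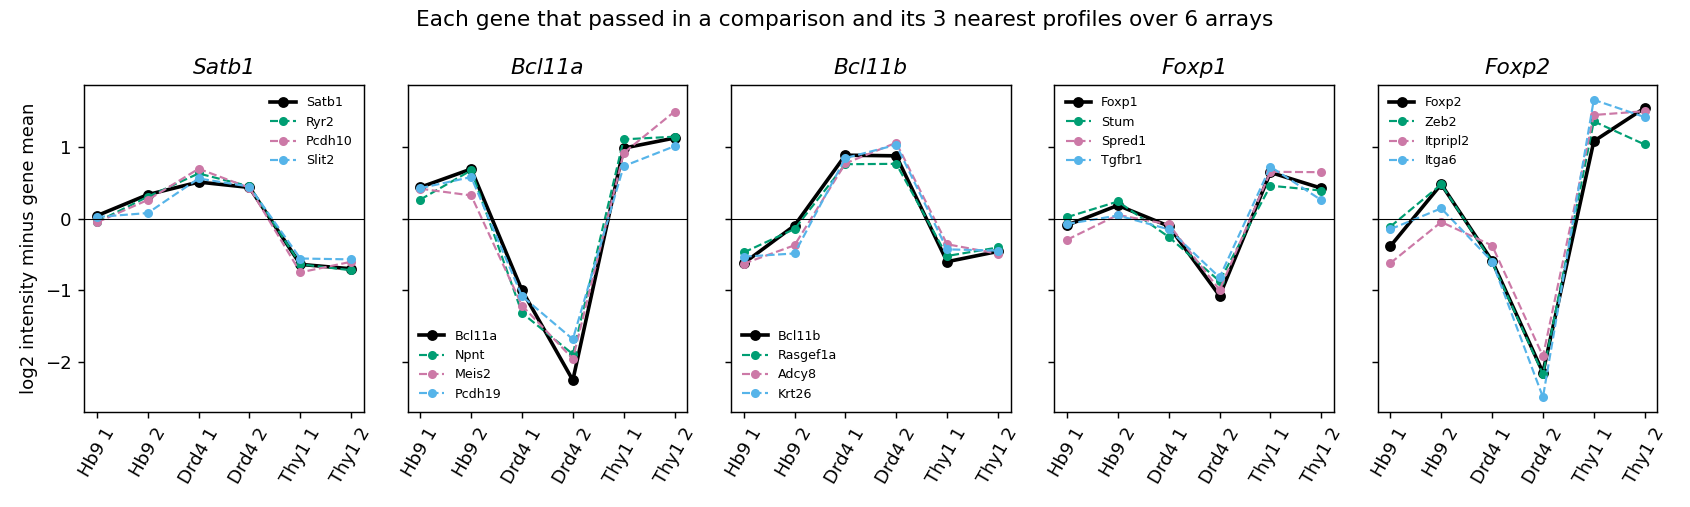
Log2 intensity minus the gene's mean over the 6 arrays for Satb1, Bcl11a, Bcl11b, Foxp1 and Foxp2 (black) and their 3 nearest genes (coloured). The dip on Drd4 replicate 2 relative to replicate 1 is seen in Bcl11a, Foxp1 and Foxp2 and in their nearest genes, and is not seen in Bcl11b, whose Drd4 arrays both read 11.57.

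Several marker lists of other cells held genes that were lower in the lines than in the Thy1 sort. Over all genes 3.19% were lower in Hb9 and 3.96% in Drd4. Of 13 microglial genes measured, 12 were lower in each line than in Thy1. By group mean, Aif1 was at or below the reference in both lines, P2ry12 in Hb9 and Ptprc in Drd4. The other microglial genes, Csf1r among them, were above it in all 3 groups. Of 14 endothelial and pericyte genes, 6 were lower in Hb9 and 7 in Drd4. Abcc9, Acta2, Col3a1, Flt1, Kcnj8 and Pdgfrb were lower in both lines, and Rgs5 passed in Drd4 only. Of the endothelial genes in the list, Cdh5, Cldn5, Pecam1 and Tek were at or below the reference in every group. Flt1, Kdr and Egfl7 were above it in every group, and of these only Flt1 passed. Between the lines 0 genes of either list passed in limma, with 1 microglial and 3 endothelial and pericyte genes at an unadjusted p under 0.05. Without Drd4 replicate 1 the counts that passed were 3 and 4, and without Drd4 replicate 2 they were 2 and 1. Of 17 stress and immediate-early genes, 6 were lower in Hb9 and 7 in Drd4, with sums of 5004 and 5712 in Hb9, 5486 and 4890 in Drd4, and 8706 and 7036 in Thy1. Of 13 genes of dividing cells, 4 were lower in Hb9 and 6 in Drd4, with sums of 844 and 801, 617 and 627, and 952 and 1421. Of 12 genes of Müller glia and progenitors, Vim and Apoe were lower in both lines, and Dkk3 was higher in Drd4. The list's sums were 2633 and 2476 in Hb9, 3140 and 2695 in Drd4, and 3705 and 3809 in Thy1. Apoe, which microglia also express, read 5.96 and 5.67 in Hb9, 6.07 and 4.67 in Drd4, and 8.85 and 7.91 in Thy1. The part of these lists in the lower Bcl11a, Foxp1 and Foxp2 values was not tested.

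Satb1 and Bcl11b are also known from T cells, which carry Thy1, and Bcl11a from B cells. Of 9 T cell genes 0 passed in any comparison, and their sums ran from 532 to 565 in Hb9, 550 to 597 in Drd4 and 564 to 621 in Thy1. Cd3g, Cd2 and Cd5 were at or below the reference in all groups, while Cd247, Cd3e, Cd4, Cd8a and Zap70 were above it in all groups, with Cd3e at 6.09 to 6.27. Of 4 B cell genes 0 passed, with sums from 124 to 134 over all arrays, and Cd79a and Cd79b were at or below the reference in every group. At an unadjusted p under 0.05, 0 of the 9 T cell genes and 3 of the 4 B cell genes differed in at least 1 comparison. Of 11 amacrine genes only Pax6, which ganglion cells also express, passed, higher in both lines. The summed amacrine intensity was 4794 to 6130 in Hb9, 5878 to 6863 in Drd4 and 3941 to 5271 in Thy1, and Gad1, Slc18a3, Slc32a1 and Tfap2b were at or below the reference in all groups.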

How the data were processed

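RNA from sorted retinal cells was amplified in 2 rounds and hybridised to 6 Affymetrix mouse arrays, per the labels' protocols. The authors deposited probe set intensities on a linear scale, and the software, background correction and normalisation behind them are unstated in these sources. Log2 of each deposited intensity was taken, with no floor since 0 values were at or below 0. Of 45101 probe sets, 34945 mapped to 1 gene by the platform annotation, and 34741 of these were matched to RefSeq by Entrez identifier. Differences between groups came from limma 3.58.1 run in R 4.3.3 (lmFit and eBayes with an intensity trend), on the leading probe set of 18193 genes, with 3 residual degrees of freedom and Benjamini-Hochberg adjustment at 0.05. Other probe sets take their values from a fit on all non-control probe sets. The scripts were tested on simulated data. The smallest exact permutation p for 2 arrays against 2 is 0.333, so none is given. With 2 arrays a group, precision is limited by their number, and log2 differences had a median standard error of 0.15.

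The genes and lists were chosen with earlier results of these data known. Named are the 6 genes, all genes of linked lists of up to 5, otherwise up to 3 higher and 3 lower genes past the threshold with the largest differences in each comparison, the 3 nearest profiles, and Thy1, Mnx1 and Drd4 as checks. Cell markers are described by list, and those named were chosen after their values were seen. Where a group mean was at or below the background reference, the difference is a lower bound taken against that reference. No bound is given where an array of that group lay above its own reference. Replicates were from different litters, per the series text. The 17 alternatives were other normalisation, offset, probe set choice, dim-gene filter, moderation, array weights, model groups, a replicate block and each array left out.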

Additional observations from a re-analysis of the deposited data

Results flagged for a closer look

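The change against the Thy1 sort differed between the lines for both Bcl11 genes, by the direct test of Hb9 against Drd4 with 2 arrays each. For Bcl11a the difference was 2.20 ± 0.32 on the log2 scale (limma adjusted p = 0.00324), with both Hb9 arrays above both Drd4 arrays. For Bcl11b it was -1.24 ± 0.17 (limma adjusted p = 0.0018), with both Hb9 arrays below both Drd4 arrays.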

How the results depend on the processing

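Over 17 alternatives and 18 differences of the 6 genes, 306 values were computed, of which 286 kept direction and side of the threshold, 6 lost the call, 7 gained it and 7 changed sign. Satb1, Bcl11a and Bcl11b in Drd4 against Thy1, and Bcl11a and Bcl11b between the lines, kept their calls in all 17. With only the compared groups, 3 of the 6 genes passed in Hb9 against Thy1, with Foxp1 at -0.49 and Foxp2 at -1.27. With robust moderation 3 passed in Drd4 against Thy1, with Foxp1 at -1.13 and Foxp2 at -2.69. With each gene's probe sets averaged, Bcl11a was -1.29 and Foxp2 -1.52 in Drd4 minus Thy1, both still called, Bcl11a was 1.08 in Hb9 minus Drd4, also called, Foxp2 was -0.61 in Hb9 minus Thy1, Foxp1 was 0.01 (0.0131) in Hb9 minus Thy1 and 0.76 in Hb9 minus Drd4, and Foxp4 was 0.0657 in Drd4 minus Thy1. Foxp4 was 0.0062 there after quantile normalisation and 0.0125 with arrays centred on their median. With each array left out in turn, the genes of the 6 that passed numbered 0 to 2 in Hb9 against Thy1, 4 to 5 in Drd4 against Thy1 and 2 to 4 between the lines, and all genes that passed numbered 315 to 1633, 666 to 922 and 411 to 1244, against 1220, 995 and 1113 with all arrays. In Hb9 minus Thy1 the ranges were 0.71 to 1.01 for Satb1, -0.0939 to 0.43 for Bcl11b and -1.70 to -0.83 for Foxp2. In Drd4 minus Thy1 they were -1.61 to -0.64 for Foxp1, -3.46 to -1.91 for Foxp2 and -0.0399 to 0.0201 for Foxp4. In Hb9 minus Drd4 they were 0.15 to 1.12 for Foxp1 and 0.64 to 2.20 for Foxp2. With an array left out, the sign changes were Bcl11b without Hb9 replicate 2 (-0.0939) and Foxp4 without Drd4 replicate 1 (0.0126) or Thy1 replicate 2 (0.0201). The other sign changes are the values above for Foxp1 in Hb9 minus Thy1 with probe sets averaged, and for Foxp4 with averaging, quantile normalisation and median centring. The cause of the changes was not tested. With the replicate number as a block, 1, 5 and 2 of the 6 genes passed and 1156, 985 and 1030 genes in all, and no call of the 6 changed. Deviations of same-numbered arrays correlated at -0.28 (Hb9 and Drd4), -0.19 (Hb9 and Thy1) and 0.37 (Drd4 and Thy1). With 2 arrays a group these values cannot exclude pairing. The numbers were not taken as pairs because they are not stated to mark a litter shared between groups. Signals near the background reference limit Bcl11a and part of the Foxp2 probe sets in Drd4.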
